A study of Mus musculus with 10 samples.

Results

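Tuft cells are rare chemosensory cells of the gut epithelium, and 10 genes that mark them are described here across mouse colon with and without the tumour suppressor p53: Dclk1, Trpm5, Pou2f3, Avil, Il25, Gfi1b, Gnat3, Plcg2, Rgs13 and Sucnr1. The genes were chosen by name, and all non-control probes that the array annotation gave to one of them were taken, which were 18 of 56605 probes, for 10 of 25160 named genes. RNA was hybridised to 10 Agilent 2-colour arrays, each of which compares a Cy5-labelled sample with a Cy3-labelled sample on the same spots. On 4 arrays the samples were whole colon tissue from male mice of an Axin2CreERT2 by Trp53 fl/fl cross, labelled WT or KO, in which tamoxifen given intraperitoneally induces the deletion in cells that express Axin2. These mice drank 2% dextran sodium sulfate (DSS), an agent toxic to the colon epithelium, over 5 to 7 days. Tissue was taken 2 months later, so that every tissue value comes from a colon after injury. There were 2 KO and 2 WT mice in 2 pairs, with a dye-swapped second array for each pair. On 1 array the source label numbers the KO mouse of pair 2 as replicate 1, against the array's title and the animal's own number, which were followed here.

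On the other 6 arrays the samples were colon organoids, epithelial cultures grown in a gel from crypts, with 2 samples each of WT, KO and KOWI. The cultures that were made KO came from VillinCreERT2 by Trp53 fl/fl mice, in which the recombinase is active in the intestinal epithelium; 4OH-tamoxifen at 800 nM was given over 2 days, and selection followed with Nutlin-3A, which depletes cells that keep p53. WT and KO grew in full medium with 0.328 nM surrogate Wnt, 3 µM CHIR (a GSK3 inhibitor that activates Wnt signalling), 50 ng/ml EGF, 100 ng/ml noggin and R-spondin conditioned medium at 25%, and all media held the TGF-beta receptor inhibitor A83-01. KOWI, named Wnt-independent in the labels, are KO organoids grown without surrogate Wnt and CHIR, so the medium and the adaptation of the cells to it cannot be told apart. The arrays formed 1 loop in which each array set a replicate 1 sample in Cy3 against a replicate 2 sample in Cy5, so replicate and dye cannot be told apart. The labels do not say that organoid replicates came from separate mice, so p-values rest on a spread between samples that may be technical only. Tissue and organoids were on separate slides. Tests between them used ratios within arrays only, while detection and intensity are given for each without a test. Levels of mice in different pairs rest on normalisation between arrays.

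In a tuft cell, the transcription factor Pou2f3 is needed for the lineage to form at all, and Gfi1b is a zinc finger repressor that the lineage also expresses. Receptors such as the succinate receptor Sucnr1 signal through G proteins, among them gustducin (Gnat3), to phospholipase C, calcium release and the cation channel Trpm5, a cascade shared with taste cells. Activated tuft cells secrete the cytokine Il25, which acts on innate lymphoid cells. The interleukin 13 of those cells in turn increases tuft and goblet cells. Dclk1 is a microtubule-associated kinase, Avil (advillin) an actin-bundling protein of the apical tuft, Rgs13 a regulator of G protein signalling and Plcg2 a phospholipase C that leukocytes also express.

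The probes of 1 gene can lie far apart, and the tissue result for Dclk1 and the signal of Avil turn on which probe is read. The 5 Dclk1 probes lie on the plus strand of chromosome 3 (build mm9, as the array annotation gives it). The first, A_55_P2148748 (chr3:55266925-55266984), and the bright tissue probe, A_55_P2505946 (chr3:55275120-55275179), are assigned to the same transcript, NM_001111053. The third, A_55_P2731506 (chr3:55320812-55320871), starts 45692 bases further on and is assigned to NM_019978. Then come A_55_P1970244 (chr3:55325921-55325980) and A_51_P193036 (chr3:55342815-55342874). The Avil probes, both of NM_009635 on the plus strand of chromosome 10, are A_51_P166339 (chr10:126453541-126454065, a span of 525 bases, longer than the probe) and A_66_P140996 (chr10:126457976-126458035). Plcg2 has 1 probe (A_51_P279163, chr8:120158980-120159037, plus strand), and so has Gnat3 (A_55_P2150003, chr5:17525427-17525486, plus strand). The sequences below, printed 5′ to 3′ as the array files give them, show the bright Dclk1 tissue probe, the one that disagreed with it (A_51_P193036), a Dclk1 probe rarely above background (A_55_P2148748) and one never so (A_55_P2731506), both Avil probes, the Plcg2 probe detected in every channel and, for the cascade below detection, the Gnat3 probe. For 4 probes a stretch of 30 bases is shown. Capitals mark the hexamer AATAAA, the sequence of the common polyadenylation signal, in the Avil and Plcg2 stretches. They also mark the stop codon that ends the Gnat3 probe, which has an AATAAA of its own left in lower case. Whether any of these hexamers acts as a signal was not tested.
Dclk1 A_55_P2148748: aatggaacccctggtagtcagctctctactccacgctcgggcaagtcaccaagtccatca
Dclk1 A_55_P2505946, bases 31 to 60: tttgacatgcaaccatgttaccctttcctg
Dclk1 A_55_P2731506: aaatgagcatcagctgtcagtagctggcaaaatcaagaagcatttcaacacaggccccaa
Dclk1 A_51_P193036, bases 31 to 60: taaattgtaggtgaatgtggaatgaaatca
Avil A_51_P166339: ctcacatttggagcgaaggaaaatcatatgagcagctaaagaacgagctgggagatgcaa
Avil A_66_P140996, bases 31 to 60: catgttcaactttacaAATAAAgaggccat
Plcg2 A_51_P279163, bases 24 to 53: tcagcctcattgAATAAAgacaacagtttc
Gnat3 A_55_P2150003: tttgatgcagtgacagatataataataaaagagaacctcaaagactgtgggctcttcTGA

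Of all spots, 45.9% to 54.7% were well above background per tissue channel and 44.6% to 59.1% per organoid channel. The scanner software marked 1.33% to 4.41% of spots as outliers on the tissue arrays, 0.808% and 2.18% on the KO against WT organoid arrays, and 13.7% to 16.3% on the other 4, which carry KOWI. Outlier spots were set to missing, which removed several member spots named below. The targeted gene Trp53, read by 1 probe, had log2 ratios of KO over WT of -0.46 and 0.04 in the 2 tissue pairs. In organoids KO over WT was -1.07 in replicate 1 and -0.59 in replicate 2, and KOWI over WT was -0.95 and -0.64. None of the 4 contrasts passed for Trp53 (limma, Benjamini-Hochberg adjusted p = 0.616 in tissue, 0.572, 0.0782 and 0.98 in organoids), and in tissue pair 2 the label was not borne out by the probe, so KO and WT in tissue mean the mice labelled so. Whether this probe lies within the deleted part of Trp53 is not given in the sources used here.

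Few of the tuft cell probes gave a signal. With 4 channels per group, 8 of the 18 probes were in no tissue channel well above background, against 35% of all probes, and 9 of 18 were in no organoid channel, against 29.6%. In every channel of a group, the number was 5 of 18 in tissue WT (40.4% of all probes), 4 in tissue KO (37.2%), 2 in organoid WT (40.2%), 2 in organoid KO (40.5%) and 3 in organoid KOWI (43.2%). The chemosensory cascade and the cytokine were at background: both Trpm5 probes, the Gnat3 probe printed above and the Il25 probe were well above background in 0 of 8 tissue channels and 0 of 12 organoid channels. Their background-subtracted intensity stayed at or below 186 units in tissue and 120 units in organoids. Ratios of these 3 genes therefore compare signals not well above background on both sides.

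The remaining 7 genes were detected unevenly. Plcg2 and the Avil probe A_66_P140996 were well above background in all 8 tissue and all 12 organoid channels. Pou2f3, through A_66_P105174, was so in 8 of 8 tissue and 9 of 12 organoid channels. Dclk1 depended on the probe. A_55_P2505946 was above background in 8 of 8 tissue channels at 467 to 1590 units and in 0 of 12 organoid channels, where it ranged from -13.6 to 18.2 units. A_51_P193036 was above background in 7 of 8 tissue channels and 10 of 12 organoid channels, and A_55_P2731506 in none of either. Gfi1b, Rgs13 and Sucnr1 were above background in at most 2 channels of any probe in either experiment. Of the general epithelial markers, 10 of 10 could be tested in tissue and 9 of 10 in organoids, by the filter given below. Of all 25160 named genes, 12785 could be tested in tissue and 9894 in organoids.

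**Figure D1:**
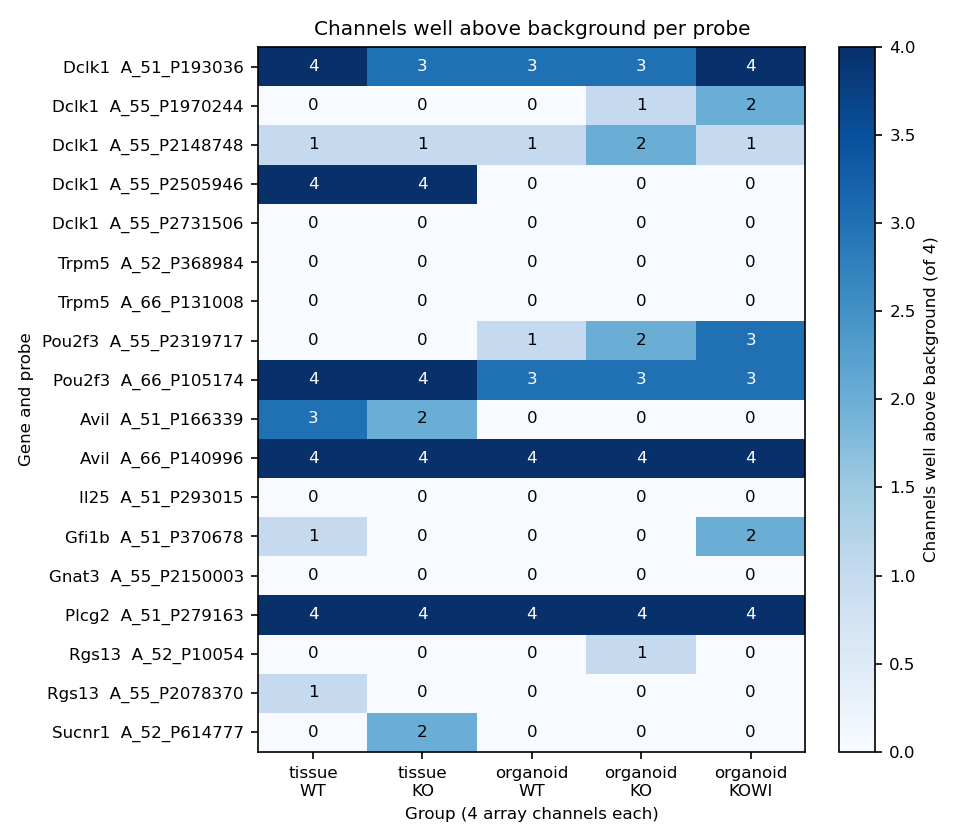
Number of array channels well above background (0 to 4) for each of the 18 probes (rows) in the 5 groups (columns). Plcg2 and 1 Avil probe reach 4 in all 5 groups, 1 Dclk1 probe reaches 4 in both tissue groups and 0 in the organoid groups, and both Trpm5 probes, Gnat3 and Il25 stay at 0.

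Tests were run on genes whose brightest probe exceeded background in all channels of 1 or more groups, where outlier marks left enough arrays. Of the 10 genes, 4 passed this filter in tissue and 2 were tested, Dclk1 and Plcg2; 3 passed it in organoids and 1 was tested, Avil. With these settings no member was tested in both experiments. Where an alternative allowed a test of the tissue minus the organoid KO effect, no member passed: Avil was at -0.97 ± 0.26 (SE; limma adjusted p = 0.330) with outlier spots kept, and Plcg2 had the lowest adjusted p, 0.152, at 0.31 with arrays taken as independent. No other gene was ranked for likeness to a member. In tissue, 0 of 12785 genes passed an adjusted p of 0.05 (limma; 1875 had an unadjusted p under 0.05), which is a background of 0%, and the smallest adjusted p was 0.253. In organoids, 0 of 9894 genes passed for KO over WT, a background of 0% (539 at an unadjusted p under 0.05). KOWI over WT gave 521 genes, 5.27% of those tested, with 323 higher (3.26%) and 198 lower (2%). KOWI over KO gave 42 genes, 0.424%, with 17 higher (0.172%) and 25 lower (0.253%). With the submitters' ratios the first split was 2 higher and 2 lower, and with a background offset of 16 the second was 5 higher and 16 lower. Without KOWI replicate 2 both KOWI contrasts gave 0 genes. No member passed in any of the contrasts.

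In tissue, the bright Dclk1 probe was higher in the KO mouse of both pairs, by very different amounts. Its log2 ratio of KO over WT was 0.03 and 0.28 on the arrays of pair 1, and 0.78 and 0.82 on those of pair 2. The dye orientations of a pair lay closer together than the pairs did. On separate channels its log2 level was 9.37 in the WT and 9.52 in the KO mouse of pair 1, and 9.32 in the WT and 10.12 in the KO mouse of pair 2. The KO mouse of pair 2 stood above the other 3, which lay between 9.32 and 9.52. The mean log2 ratio was 0.48 ± 0.21 (SE, n = 2 pairs; 95% interval -0.24 to 1.19), which did not pass (limma adjusted p = 0.431). On the levels of the mice, without the pairing, the ratio was 0.77 without the KO mouse of pair 1 and 0.18 without the KO mouse of pair 2. A second Dclk1 probe, A_51_P193036, gave a mean of -0.07 in pair 1, but its dye orientations disagreed, at -0.46 and 0.31. In pair 2 its mean was -0.06, from -0.11 and -0.0008. The median over these 2 probes took the gene's ratio to 0.21. A further probe, A_55_P2148748, was above background in 2 of 8 tissue channels and gave 0.13 and 0.05. In this bulk tissue, a change in the number of cells of a type and a change in RNA per cell cannot be told apart.

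Plcg2 was higher in KO on each of the 4 tissue arrays, within a narrow range: 0.23 and 0.30 in pair 1, 0.19 and 0.12 in pair 2. Its mean log2 ratio was 0.21 ± 0.07 (SE, n = 2 pairs; 95% interval -0.03 to 0.45; limma adjusted p = 0.370). Its log2 level was 12.19 in the WT and 12.45 in the KO mouse of pair 1 and 12.70 and 12.85 in those of pair 2, so the mice of the groups overlapped. Leaving out 1 mouse was done on these levels, without the pairing. Without the WT mouse of pair 1, both KO mice were set against the WT mouse of pair 2, and the ratio turned to -0.04. Leukocyte markers moved with the pairs. Of 10 pan-leukocyte and macrophage genes, 8 were tested, with 0 past the threshold. All 8 had a positive mean, against 48.9% of all genes tested in tissue. The median of the 8 was -0.01 in pair 1 and 0.86 in pair 2. Ptprc, the pan-leukocyte phosphatase CD45, was -0.26 in pair 1 and 1.96 in pair 2, and Adgre1, the macrophage marker F4/80, was 0.54 and 1.79. Of the 10 markers of enteric neurons and glia, cells that can also express Dclk1, 8 were tested with a median of 0.23 in pair 1 and -0.01 in pair 2. The part of either cell type in the Dclk1 and Plcg2 ratios was not tested.

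**Figure D2:**
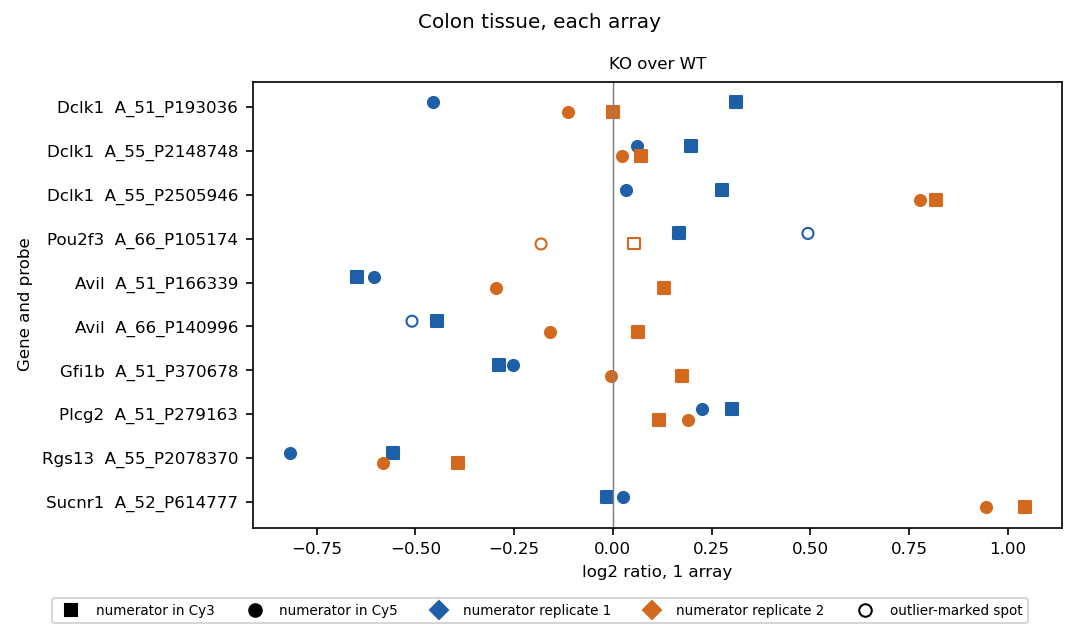
Log2 ratio of KO over WT on each of the 4 tissue arrays (points) for probes above background in at least 1 tissue channel. Blue is pair 1, orange pair 2, squares have KO in Cy3 and circles in Cy5, and hollow points are spots marked as outliers. The bright Dclk1 probe lies at 0.78 and 0.82 in pair 2 and the Sucnr1 probe at 0.94 and 1.04, and both at or below 0.28 in pair 1.

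Avil separated the pairs of mice rather than the genotypes. On A_66_P140996 its log2 level was 12.84 in the WT and 12.40 in the KO mouse of pair 1, against 9.57 in the WT and 9.52 in the KO mouse of pair 2. Both mice of pair 1 were far above both mice of pair 2, by 3.07 on the log2 scale or 8.42-fold. Avil was not among the 12785 genes tested in tissue, since 1 of its pair 1 spots was marked as an outlier, and its pair 1 level rests on 1 array. Of those 12785 genes, 28 (0.219%) were at least that far apart between the pairs. The second Avil probe, A_51_P166339, ran the same way: 8.44 and 7.82 in the WT and KO mice of pair 1, 6.99 and 6.90 in those of pair 2. Plcg2 and the bright Dclk1 probe went the other way between the pairs, by -0.45 and -0.27. The 4 tissue arrays were on 1 slide, and what sets the pairs apart was not tested. General epithelial markers differed between the pairs by a median of 0.11 and markers of enteric neurons and glia by 0.25, while mast cell markers differed by a median of 1.14 (6 of 10 measured, from -0.36 to 6.26). Leukocyte and macrophage markers differed by 0.535, B cell and smooth muscle markers by 0.29 each, goblet cell markers by 0.12 and enteroendocrine markers by -0.48. Among the lists of tuft-related genes described below, the taste-type cascade differed by -0.28 and other tuft-enriched genes by -0.32. The eicosanoid and acetylcholine enzymes differed by 0.08, the adaptors and kinases by 0.07 and the type 2 circuit by 0.04.

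Within the pairs, Avil was lower in the KO mouse of pair 1 and close to equal in pair 2. A_51_P166339 gave -0.60 and -0.65 on the arrays of pair 1 and -0.30 and 0.13 on those of pair 2. A_66_P140996 gave -0.45 on the 1 array of pair 1 without an outlier mark, and -0.16 and 0.06 in pair 2. With outlier spots kept, the tissue log2 ratio of Avil was -0.26 ± 0.15 (SE, n = 2 pairs; limma adjusted p = 0.509).

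**Figure D3:**
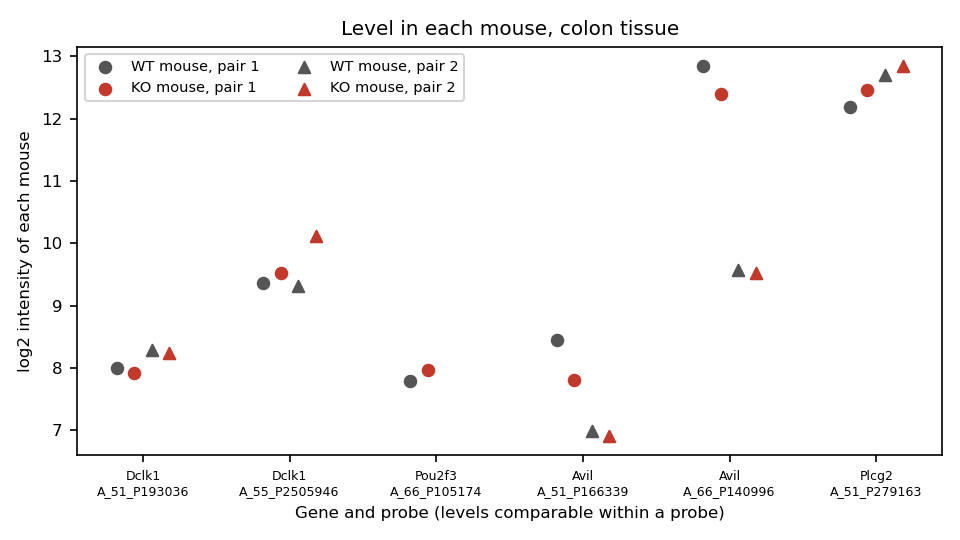
Log2 intensity in each of the 4 mice (points) for probes above background in at least 5 of 8 tissue channels; grey is WT, red KO, circles pair 1 and triangles pair 2. Levels compare mice within a probe. Both Avil probes are higher in both mice of pair 1, and the bright Dclk1 probe is highest, at 10.12, in the KO mouse of pair 2. Pou2f3 has no value in pair 2 because both spots were marked as outliers.

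The regulators and receptors gave weaker evidence in tissue. Pou2f3, the lineage-defining factor, lost 3 of its 4 tissue spots to outlier marks, and the remaining array of pair 1 gave a log2 ratio of 0.17; with the marked spots kept it was 0.13 ± 0.14 (SE, n = 2 pairs; limma adjusted p = 0.705). Sucnr1 was well above background in both channels of the KO mouse of pair 2, at 97.5 and 187 units, and in none of the other 6. Its ratios were 0.94 and 1.04 in pair 2 and 0.02 and -0.01 in pair 1. Rgs13 on A_55_P2078370 was negative on all 4 arrays, from -0.82 to -0.39, but was above background in 1 of 8 channels, of a WT mouse. The other Rgs13 probe ranged from -0.48 to 0.17 with no channel above background. Gfi1b, above background in 1 WT channel, ranged from -0.29 to 0.18.

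In organoids, Avil varied between replicates as much as between groups. KO over WT was 0.90 on the array of KO replicate 2 against WT replicate 1, and 0.07 on that of KO replicate 1 against WT replicate 2. KOWI over WT was 0.54 on the array without an outlier mark. KOWI over KO was 1.18 for KOWI replicate 2 against KO replicate 1 and -1.01 for KOWI replicate 1 against KO replicate 2. The replicate 2 samples of KO and KOWI were the highest. On the scale of sample values centred on 0, solved from the loop, KO stood at -0.60 and 0.87 in replicates 1 and 2, KOWI at -0.14 and 0.57, and WT at -0.03 and -0.67. The groups overlapped, and the spread between replicates of a group exceeded the difference between groups. The log2 ratio of Avil was 0.49 ± 0.49 for KO over WT (SE, n = 2 samples a group; limma adjusted p = 1.00), 0.57 ± 0.49 for KOWI over WT (adjusted p = 0.568) and 0.08 ± 0.49 for KOWI over KO (adjusted p = 0.979). The 95% intervals ran from -0.73 to 1.70, from -0.65 to 1.79 and from -1.13 to 1.30, all spanning 0. Without WT replicate 1, KO over WT was 1.35 and KOWI over WT 1.44, and with the submitters' ratios they were 1.10 and 1.48, none past the threshold. Without KOWI replicate 2, KOWI over KO turned to -0.06. With outlier spots kept, KOWI over WT was 1.06 ± 0.28 (adjusted p = 0.172). The second Avil probe was in no organoid channel above background.

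Plcg2 had ratios near 0 for KO over WT organoids and positive ones for KOWI over KO on both arrays, but could not be tested. KO over WT was -0.14 and -0.06 on the 2 arrays. KOWI over KO was 0.73 for KOWI replicate 1 and 0.46 for KOWI replicate 2. Both arrays of KOWI against WT had the spot marked as an outlier, which broke the loop and left no sample values. With the marked spots kept, KOWI over KO was 0.51 ± 0.24 (SE, n = 2 samples a group; limma adjusted p = 0.680) and KOWI over WT 0.30 ± 0.24 (adjusted p = 0.671). With arrays taken as independent, which understates the error, KOWI over KO was 0.60 with an adjusted p of 0.0529, the smallest of the 123 member tests over all alternatives, of which 0 passed.

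Pou2f3 and Dclk1 were not tested in organoids. Pou2f3 on A_66_P105174 was -0.04 and 0.04 on the KO over WT arrays. KOWI replicate 1 gave -1.47 over WT replicate 2 and -0.60 over KO replicate 2, while KOWI replicate 2 gave 0.02 over WT replicate 1 and 0.51 over KO replicate 1. Against KO, the replicates of KOWI lay on opposite sides. The other Pou2f3 probe, A_55_P2319717, was above background on 3 arrays with KOWI, in both channels of each, and the spot was marked as an outlier on all 3. Dclk1 on A_51_P193036 was -0.32 and -0.01 for KO over WT. It was 0.18 for KOWI replicate 2 over KO replicate 1, the 1 of 4 KOWI arrays without an outlier mark. With marked spots kept it was 0.07 ± 0.27 for KO over WT and -0.01 ± 0.27 for KOWI over WT (SE, n = 2 samples a group; limma adjusted p = 1.00 and 0.995). KOWI over KO was -0.08 ± 0.27 (SE) in the same fit. Another Dclk1 probe, A_55_P1970244, was above background in both channels of KOWI replicate 2, at 148 and 2420 units, and in 1 of the other 10 organoid channels. Its ratios for that sample were 0.62 over WT and, on a spot marked as an outlier, 2.02 over KO, against -0.34 and 0.04 for KOWI replicate 1. The Dclk1 probe A_55_P2148748 was above background in 4 of 12 organoid channels. Its ratios were -0.22 over WT and -0.30 over KO for KOWI replicate 1, and -0.07 and -0.01 for KOWI replicate 2. For KO over WT it gave -0.03 and 0.09. Gfi1b was above background in both channels of KOWI replicate 1, at 29.9 and 36.8 units, and in no other organoid channel; its ratios were 0.54 over WT and 0.43 over KO there, against 0.02 and 0.05 for KOWI replicate 2. Sucnr1 was in no organoid channel above background, and Rgs13 in 1.

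**Figure D4:**
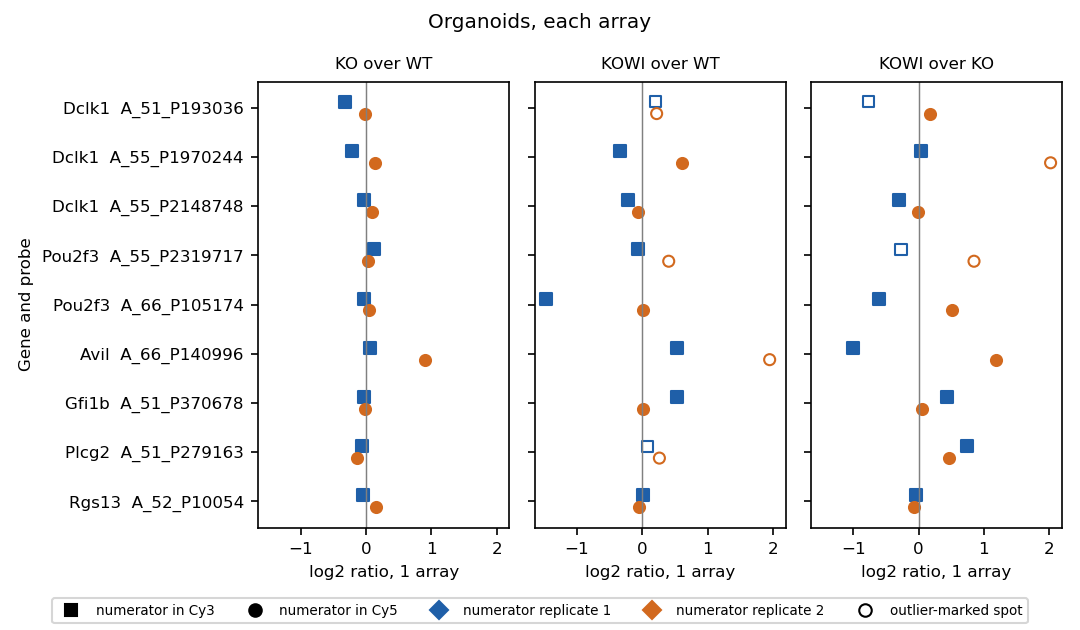
Log2 ratio on each of the 6 organoid arrays for probes above background in at least 1 organoid channel, by contrast. Blue squares have the first-named group's replicate 1 in Cy3, orange circles its replicate 2 in Cy5, and hollow points are spots marked as outliers. KO over WT lies between -0.32 and 0.15 apart from Avil at 0.90, and Avil and Pou2f3 fall on both sides of 0 for KOWI over KO.

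Other genes of tuft cell biology were read from lists by function, chosen with earlier results of these data known. The taste-type cascade (taste receptors, G protein subunits, Plcb2, calcium release channels and Trpm4) had 3 of 10 genes tested in tissue and 1 in organoids, and 0 passed in any contrast. In tissue the calcium release channel Itpr2 was at 0.30 and the cation channel Trpm4 at -0.13. In organoids Itpr2 was at -0.17 for KO over WT and -0.43 for KOWI over WT. The median over all genes tested was between -0.04 and 0.05 in the 4 contrasts.

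The enzymes that make eicosanoids and acetylcholine held the 1 tuft-related gene that passed. It passed in KOWI over WT, where 5.27% of all genes tested did. Ptgs1, the cyclooxygenase 1 of tuft cells and other cells, was higher in KOWI than in WT organoids, by 2.28 in replicate 1 and 3.20 in replicate 2. The fitted log2 ratio was 2.74 ± 0.51 (SE, n = 2 samples a group; limma adjusted p = 0.0482). The call was lost in 9 of 16 alternatives, among them without KOWI replicate 2 (2.09, adjusted p = 0.374), without KO replicate 2 (2.45, 0.110) and without WT replicate 1 (2.78, 0.108), and the adjusted p ranged from 9.87e-05 to 0.374. For KO over WT it was 1.11, and for KOWI over KO 1.63, and neither passed (adjusted p = 0.941 and 0.248). In tissue it was 0.41 and 0.79 in the 2 pairs (adjusted p = 0.294). Of the 6 enzymes, 5 were tested in tissue with 0 past the threshold, a median of -0.22 in pair 1 and 0.66 in pair 2, beside leukocyte medians of -0.01 and 0.86. In organoids 3 were tested, of which 1 was higher in KOWI over WT, against 3.26% of all genes tested. In the other contrasts 0 of the 3 passed. Alox5ap, the partner of 5-lipoxygenase in leukotriene synthesis, was at 0.34 in tissue, and at 0.48 for KOWI over WT. Chat, the enzyme of acetylcholine synthesis, was at -0.30 for KOWI over WT, with -1.13 and 0.54 in the replicates.

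The adaptors and kinases that tuft cells share with leukocytes had 9 of 12 genes tested in tissue and 4 in organoids, and 0 passed in any contrast. The largest in tissue were the adaptor Fyb at 0.79 (0.40 and 1.19 in the pairs) and the kinase Bmx at 0.75 (0.76 and 0.75). In organoids, the kinase Matk was at 0.45 for KO over WT and 0.52 for KOWI over WT, and Kctd12 at 0.13 and -0.34. Of the 4 genes tested there, 2 were positive for KO over WT, with a median of 0.01. For KOWI over WT only 1, Matk, was positive, and the median was -0.12. Of 14 other tuft-enriched genes, 9 were tested in tissue with a median of -0.42, 3 of them positive; Hepacam2 was at -0.78 and Espn, an actin-bundling protein, at -0.53. Beside them, epithelial secretory markers were negative in tissue: 7 of 7 goblet cell genes, with a median of -0.17, and 7 of 7 enteroendocrine genes, with a median of -0.82. General epithelial markers were also negative, 10 of 10 with a median of -0.12, while smooth muscle markers were positive, 8 of 8 with a median of 0.15. None of these 4 lists had a gene past the threshold, and 48.9% of all genes tested in tissue were positive. In organoids 6 of the 14 were tested, all 6 positive for KO over WT (median 0.56) and for KOWI over WT (median 0.79), with 0 past the threshold. For KO over WT, 61.1% of all genes tested were positive, as were 5 of 5 enteroendocrine genes (median 0.84) and 6 of 7 goblet cell genes (median 0.31). For KOWI over WT the list's median was 0.23 in replicate 1 and 1.39 in replicate 2. In that contrast 0 of 5 enteroendocrine and 0 of 7 goblet cell genes were positive, against 51.7% of all genes tested. The largest for KOWI over WT were the surface protein Cd24a at 1.87 (limma adjusted p = 0.135) and Nrep at 1.00 (limma adjusted p = 0.442). In replicates 1 and 2, Cd24a was at 0.59 and 3.15, and Nrep at -0.15 and 2.15, on opposite sides of 0. Stem cell and other epithelial cells also express several of these genes.

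The type 2 cytokine circuit links tuft cells to innate lymphoid cells. Of 11 genes, 6 were tested in tissue, 6 positive (against 48.9% of all genes tested) and 0 past the threshold. The list's median was 0.18 in pair 1 and 0.31 in pair 2. Gata3, a transcription factor of type 2 lymphocytes, was at 1.06 and 1.02 in the pairs (limma adjusted p = 0.253), and the alarmin Il33 at 0.97 and 0.17. In organoids 4 genes were tested and 0 passed in any contrast. The largest were negative, Il17ra at -0.18 for KO over WT and Il1rl1 at -0.39 for KOWI over WT. The receptor subunit Il4ra was at 0.11 for KO over WT and 0.25 for KOWI over WT. In each of these 2 contrasts 2 of the 4 genes were positive, with medians of -0.02 and -0.03. For comparison, 3.26% of all genes tested were higher and 2% lower in KOWI than in WT organoids. The general epithelial list had 1 of 9 genes lower, the brush border protein Vil1 at -1.23 ± 0.19 (SE, n = 2 samples a group, limma adjusted p = 0.0335). The neuron and glia list had 1 of 2 higher, the deubiquitinase Uchl1 at 1.06 ± 0.18 (limma adjusted p = 0.0413). Each of these calls was lost in 10 of 16 alternatives, among them leaving out any organoid sample other than KO replicate 1. The ratio of Uchl1 was 3.11 with Agilent's processed signals and 3.08 with the submitters' ratios.

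**Figure D5:**
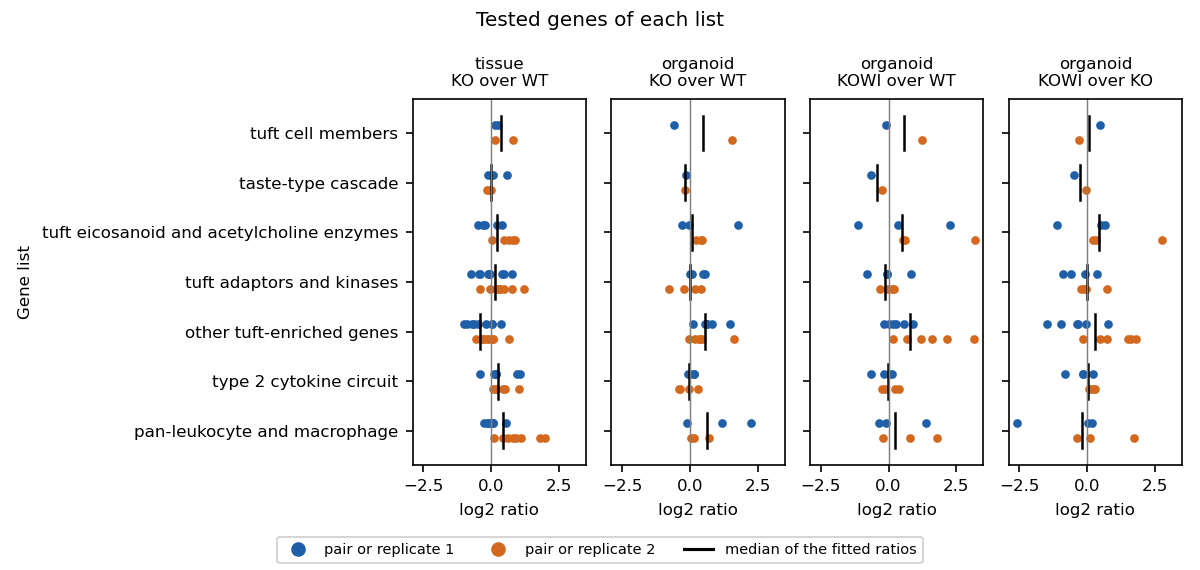
Log2 ratios of the tested genes of 7 lists in the 4 contrasts; blue points are pair or replicate 1, orange points pair or replicate 2, and the black bar is the median of the fitted ratios. In tissue the eicosanoid enzymes and the leukocyte markers lie further right in pair 2 (medians 0.66 and 0.86) than in pair 1 (-0.22 and -0.01).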

How the data were processed

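Per the file headers, the deposited scanner files were made with Agilent Feature Extraction 12.2.0.7 (protocol GE2_1200_Dec17, design 074809, probe positions on mm9) and hold the mean and background intensity of each channel and a log10 ratio per spot. The deposited value table holds the authors' log2 ratios of Cy5 over Cy3: set against the scanner ratios its columns had slopes of 0.967 to 0.999 and medians of -0.000351 to 0.0173, and its centring is unknown. Per the submitters' processing notes limma was used, with no steps given. Here, in limma 3.58.1 (R 4.3.3), intensities were corrected by normexp (offset 50) and loess-normalised within arrays, controls having weight 0, and outlier-marked spots were set to missing. Each gene was read by its brightest probe, kept if it exceeded background in all channels of 1 or more groups. Of 56605 probes, 35405 were named by accession through RefSeq (GRCm38.p6, names only), 9124 by symbol and 25 by synonym.

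In tissue, dye-swapped arrays of a pair were averaged and the 2 pair ratios tested against 0. Levels of single mice came from the separate channels after mean intensities were quantile-normalised between arrays, and were averaged over the 2 channels of a mouse. Tissue values with a mouse left out compared these levels without the pairing. In organoids, sample values solved from the loop were fitted with group and replicate as terms; the replicate number is also the dye. Between WT and KO, WT and KOWI, and KO and KOWI the same-numbered deviations correlated at 0.215, 0.168 and -0.0172 over 9894 genes. P-values were adjusted by Benjamini-Hochberg over all genes tested, with a threshold of 0.05. Precision is limited by the number of arrays. The members and gene lists were chosen with earlier results of these data known. All members were to be named with every detected probe, plus up to 4 passing genes of a list in a contrast, or otherwise its 2 largest, and Trp53. The calculations were tested on simulated data.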

Additional observations from a re-analysis of the deposited data

How the results depend on the processing

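No member passed under any alternative in its 123 tests. The direction turned for Plcg2 in tissue, where leaving out 1 mouse, without the pairing, gave -0.044 (without the WT mouse of pair 1) to 0.461. It also turned for Avil in KOWI over KO. There, only leaving out KOWI replicate 2 (-0.0628) or WT replicate 1 (0.0842) could be fitted. The number of passing genes depended on the processing, and the cause was not tested. For tissue it was 865 with median centring in place of loess and 456 with arrays taken as independent. For KO over WT it was 592 with independent arrays and 1 with the median over probes. For KOWI over WT, beside 521, it was 143 with Agilent's processed signals, 4 with the submitters' ratios, 186 with median centring, 226 with no filter, 60 with outlier spots kept (45 higher, 15 lower) and 3638 with independent arrays. For KOWI over KO, beside 42, it was 0 with processed signals, 0 with the submitters' ratios, 21 with an offset of 16, 11 with median centring, 4 with no filter (0 higher), 0 with outlier spots kept and 2196 with independent arrays. The tissue effect minus the organoid effect gave 15 genes with median centring and 797 with independent arrays. Without the replicate block the counts were 0, 0, 388, 38 (11 higher, 27 lower) and 0 in the same order. Leaving out 1 sample gave 0 to 0 genes in tissue, 0 to 12 for KO over WT, 0 to 780 for KOWI over WT, 0 to 143 for KOWI over KO and 0 to 0 for the difference. For KOWI over WT it was 0 without KOWI replicate 2, 15 without KO replicate 2, 48 without WT replicate 2, 108 without WT replicate 1 and 272 without KOWI replicate 1. Reading each gene by its brightest unmarked probe was chosen after seeing the data. Detection and outlier marks both limited what could be tested: Trpm5, Gnat3 and Il25 gave no channel well above background, and marks removed Avil and Pou2f3 in tissue and Dclk1 and Plcg2 in organoids. For Dclk1 in tissue, leaving out 1 mouse, also without the pairing, gave 0.179 to 0.774.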
